A study of Mus musculus with 4 samples.

Results

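The 10 genes described here handle zinc, iron and haem in mouse embryonic stem cells: the metallothioneins Mt1 and Mt2, the zinc transporters Slc30a1, Slc39a8, Slc39a10 and Slc39a14, and the iron and haem genes Tfrc, Fth1, Slc11a2 and Hmox1. They were chosen by name among the 36039 genes of the array, as every probe whose gene name in the scanner files is one of these 10, which gave 14 probes, all of them usable. The set was drawn up because a hydroxyquinoline binds metal ions and because Slc39a8 was among the genes with the lowest values after azacytidine relative to control, so the azacytidine contrast of Slc39a8 is a description and supports nothing. The other contrasts of Slc39a8 with that control array share its value, and they too are descriptions only. Total RNA of the E14Tg2A line, a 129/Ola embryonic stem cell line grown on gelatin, was hybridised to 4 single-colour Agilent arrays, 1 per group. ES denotes undifferentiated cells (0 DIV, where DIV counts days of differentiation in vitro), kept in serum and leukaemia inhibitory factor. ELA denotes epiblast-like aggregates, in which dissociated cells float for 2 days in a serum-free minimal medium with N2 and B27 supplements and reach a primed state. AZA denotes ELA cells at 2 DIV that formed aggregates with 50 nM 5-azacytidine, a cytosine analogue that inhibits DNA methyltransferases. CHQ denotes ELA cells at 2 DIV that formed aggregates with 100 µM 5-carboxy-8-hydroxyquinoline, given in the labels as an inhibitor of lysine demethylases. All 4 groups were the same unmodified line, and each array carried RNA pooled from 3 experiments.

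Metallothioneins are small cysteine-rich proteins that bind zinc and copper, and their genes are switched on by the zinc-sensing factor Mtf1, which binds metal response elements in promoters. Transporters of the Slc39 family bring zinc into the cytosol and those of the Slc30 family carry it out of the cytosol, and Slc30a1 is itself a target of Mtf1. Cells take up iron by the transferrin receptor (Tfrc) and move it out of endosomes through Slc11a2. They store it in ferritin (Fth1 is the heavy chain) and free it from haem by haem oxygenase (Hmox1). The stability of Tfrc mRNA and the translation of ferritin mRNA depend on iron through iron regulatory proteins.

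Because no group had a replicate array, no p-value was computed, and the comparisons below describe these arrays. Values are log2 intensities after background correction and quantile normalisation. A gene was called higher or lower when its 2 log2 values were at least 1 apart and averaged 7.5 or more, provided that the scanner software marked its probe as well above background on either array. Values of different genes come from different probes and cannot be ranked against each other. Technical error was judged from repeated spots. The spread between different probes of a gene is given as well, but such probes are not replicates. Over 432 probes spotted several times, the SD of a log2 value between spots was 0.15 in ES, 0.17 in ELA, 0.12 in AZA and 0.14 in CHQ. Different probes of the same gene gave differences that varied with an SD of 0.28 for ELA against ES and 0.29 for CHQ against AZA. That SD was 0.56 for AZA against ELA and 0.55 for CHQ against ELA. The ES and ELA arrays lay on one slide and the AZA and CHQ arrays on another, with a median local background of 59 and 77 against 14 and 13 intensity units. In AZA against ELA and CHQ against ELA, treatment and slide therefore cannot be told apart, whereas ELA against ES and CHQ against AZA lie within a slide. In ELA against ES, the change of medium, the growth as floating aggregates and the change of cell state come together and cannot be told apart. An order of arrays across the slides depends on the scaling, and the orders given are those of the main setting described here.

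All 10 genes were well above background on all 4 arrays. Of the 10 pluripotent cell markers, 10 were also well above background on every array. In ELA against ES, 5 of these 10 were called lower (Zfp42 at -3.80, Klf4 at -3.04, Esrrb at -2.85, Nanog at -2.50 and Dppa5a at -1.02), where 5.59% of all genes tested were. The dimmer Nanog probe gave 0.23, and with AZA -1.55 and with CHQ -1.01, where the brighter gave 2.86 and 0.01. With AZA 4 were higher and 2 lower, and with CHQ 3 were higher and 2 lower, where 25.6% and 26.6% of all genes tested were called in either direction. Of 4 priming markers, 2 were called higher in ELA against ES, 3 lower with AZA and 2 lower with CHQ. Of all genes tested, 4.45%, 11.4% and 11.9% were called in those directions. Fgf5 gave 2.86, -2.54 and -1.15 in these comparisons, whereas Otx2 gave 0.33 with AZA and Pou3f1 0.30 with CHQ. The part of this change of state in the members' differences was not tested. Of 12 markers of primitive and visceral endoderm, 6 were detected in ES, 5 in ELA, 10 in AZA and 9 in CHQ, with median log2 values of 6.62, 6.72, 6.96 and 7.68. Of all spots other than controls, 60.6%, 55.1%, 69.1% and 69.2% were well above background on these arrays, and the part of this in the marker counts was not tested. Transthyretin (Ttr) and Apoa1, which define mature visceral endoderm, were detected on none of them. Gata4, Foxa2, Dab2, Amn and Cubn were detected on all 4 arrays by their brightest probes. Gata6, Sox17, Pdgfra and Afp were detected so in AZA and CHQ only, and Sox7 in ES and AZA. Of 5 neural markers 5, 5, 4 and 4 were detected in the same order, of 7 trophoblast markers 6, 4, 5 and 6, and of 6 fibroblast markers 3, 4, 4 and 4. The part of these cell types in the differences below was not tested, and in bulk RNA fewer cells of a type and less RNA per cell cannot be told apart.

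The promoters of 7 of the 10 genes matched the RefSeq table of promoters (build GRCm38.p6), each as the 250 bases before a start site. They were searched on both strands for the core of the metal response element, TGCACNC or TGCGCNC, where N is any base. This short motif was present in 21.4% of the 32851 promoters of that length, and the looser pattern TGCNCNC in 44.4%. The promoters of Mt2, Mt1 and Slc30a1 are shown because these Mtf1 targets were all called higher in ELA against ES below, with each match to the core in capitals. The promoter of Slc39a8 is shown because of the wide azacytidine difference that chose this gene, here with its CpG dinucleotides, the sites DNA methyltransferases act on, in capitals.

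Mt2, chr8:94172368-94172617, plus strand: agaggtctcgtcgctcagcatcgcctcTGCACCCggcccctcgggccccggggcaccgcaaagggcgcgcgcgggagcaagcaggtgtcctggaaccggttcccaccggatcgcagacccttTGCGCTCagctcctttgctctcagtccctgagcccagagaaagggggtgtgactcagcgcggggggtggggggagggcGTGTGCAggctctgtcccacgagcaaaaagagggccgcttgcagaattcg

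Mt1, chr8:94178839-94179088, plus strand: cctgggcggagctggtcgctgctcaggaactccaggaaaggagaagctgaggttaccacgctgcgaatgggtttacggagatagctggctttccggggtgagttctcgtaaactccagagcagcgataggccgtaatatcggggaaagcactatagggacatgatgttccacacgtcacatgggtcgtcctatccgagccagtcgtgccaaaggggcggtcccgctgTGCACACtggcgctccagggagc

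Slc30a1, chr1:191906531-191906780, plus strand: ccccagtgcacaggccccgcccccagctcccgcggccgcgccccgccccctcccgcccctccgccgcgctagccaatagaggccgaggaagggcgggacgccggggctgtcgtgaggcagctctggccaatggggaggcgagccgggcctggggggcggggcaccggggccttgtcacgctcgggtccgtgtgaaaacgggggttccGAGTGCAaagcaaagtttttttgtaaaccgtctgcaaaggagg

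Slc39a8, upstream start site, chr3:135825029-135825278, plus strand: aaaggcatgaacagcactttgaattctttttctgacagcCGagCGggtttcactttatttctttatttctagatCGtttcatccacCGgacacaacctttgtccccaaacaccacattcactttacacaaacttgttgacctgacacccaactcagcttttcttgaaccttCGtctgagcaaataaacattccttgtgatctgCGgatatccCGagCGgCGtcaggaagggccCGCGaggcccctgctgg

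The Mt2 promoter held 3 matches to the core, and 1.26% of all promoters held 3 or more, while the looser pattern matched Mt2 5 times, and 0.344% of all promoters held 5 or more of those. The Mt1 promoter held 1 match, TGCACAC, 23 to 17 bases before the start site. When the 50 bases after the start were added, Mt1 held 3 matches to the core and Mt2 held 4, and in windows of that length 1.97% of all promoters held 3 or more. The start sites of both genes lay 6.47 kb apart on the same strand, Mt2 first. The Slc30a1 promoter held 1 match, TGCACTC on the minus strand, 43 to 37 bases before the start. Of the other members, 1 of 2 Slc39a8 promoters held 1 match to the core, the 2 Tfrc promoters held 2 and 0, and the 2 promoters each of Slc39a10 and Fth1 held 0. The 2 matches in Tfrc overlap on opposite strands. The Slc39a8 window shown held 11 CpG and the other Slc39a8 window 9, where the median promoter held 6 (quartiles 2 and 16). The promoter windows of Mt1, Mt2 and Slc30a1 held 17, 21 and 25 CpG. A match or a CpG count describes these letters and is no evidence of binding or of methylation.

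Mt1 and Mt2 were several times higher in ELA than in ES cells. The Mt1 probe (mm9, chr8:96704165-96704224, plus strand) read 15.75 in ES, 17.65 in ELA, 18.04 in AZA and 17.37 in CHQ. The Mt2 probe (mm9, chr8:96697371-96697430, plus strand) read 15.50 in ES, 17.78 in ELA, 18.16 in AZA and 17.37 in CHQ. Both genes had the same order of arrays in the main setting, with ES lowest, CHQ next, then ELA and AZA. In ELA against ES, Mt1 was called higher by 1.90 (3.74-fold) and Mt2 by 2.27 (4.83-fold). Each value rests on 1 probe with 1 spot, and the spread between cultures is not known. Under every processing alternative both genes were called higher, at 1.44 to 2.10 for Mt1 and 1.81 to 2.40 for Mt2.

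**Figure D1:**
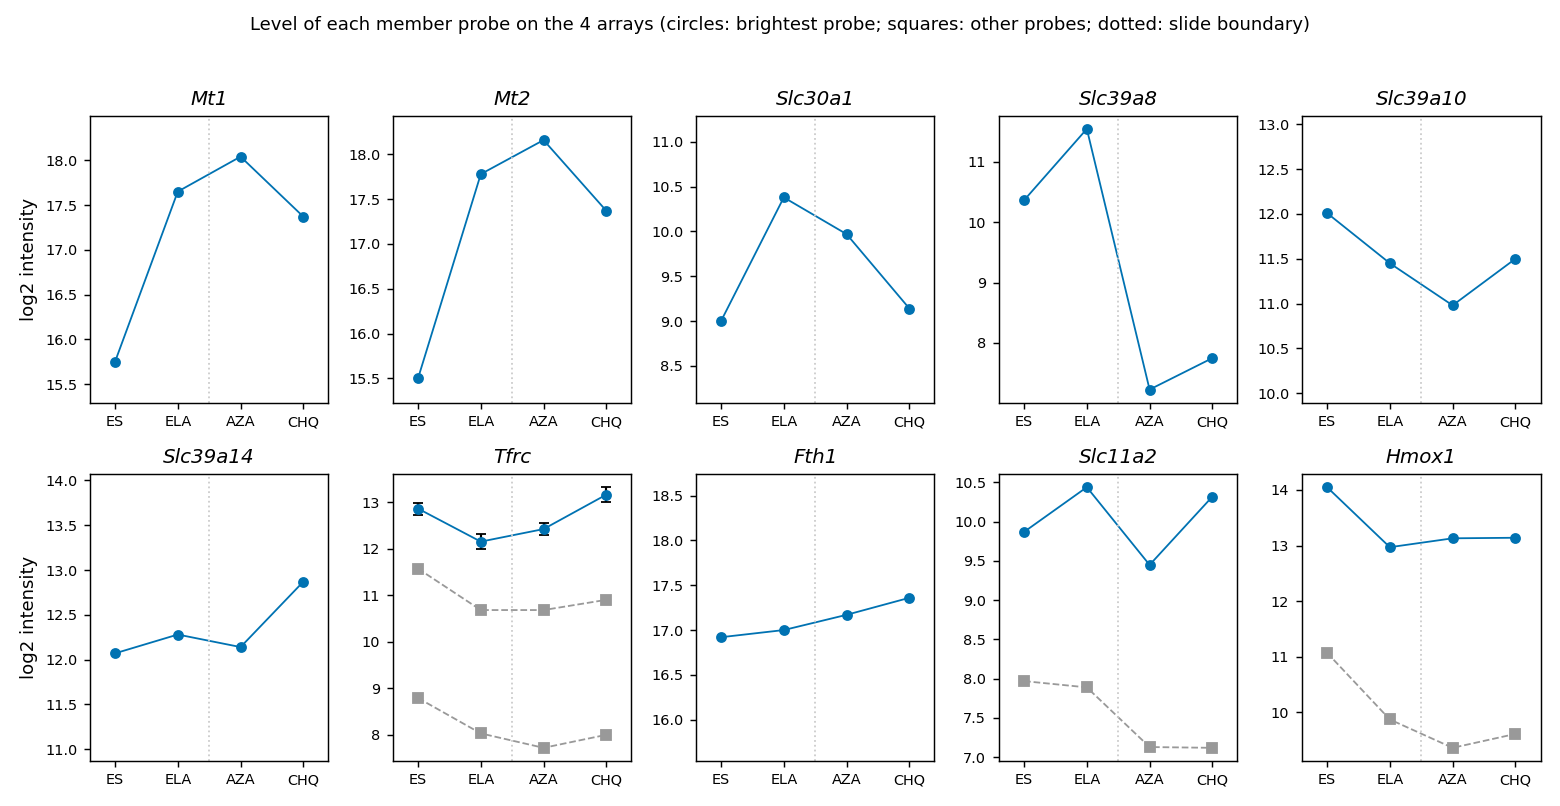
Log2 intensity of each member probe (y axis, with its own range in each panel) on the ES, ELA, AZA and CHQ arrays (x axis), with circles for the brightest probe of a gene, squares for its other probes and a dotted line between the slides. Bars on Tfrc are the SD of its repeated spots. Slc39a8 stands at 10.36 and 11.54 on the first slide and at 7.23 and 7.75 on the second, and Mt1 and Mt2 are lowest in ES.

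With treatment, the metallothioneins gave a result that depended on how the slides were scaled. With AZA, Mt1 differed by 0.39 and Mt2 by 0.38, both below the call, and both changed sign under 75th percentile scaling (-0.38 and -0.28) and under spike-in scaling (-0.34 for each). The uncorrected spot intensities showed the same conflict. For Mt1 they were 70100 in ES, 246000 in ELA, 220000 in AZA and 131000 in CHQ, so that ELA read above AZA before normalisation. In CHQ against ELA, Mt1 differed by -0.28 and Mt2 by -0.41, but under 75th percentile scaling both were called lower (-1.23 and -1.21), as under spike-in scaling (-1.25 and -1.37). Within the second slide the picture was steadier. CHQ minus AZA was -0.67 for Mt1 and -0.79 for Mt2, with ranges over the alternatives of -0.91 to -0.63 and -1.03 to -0.74. Neither was called in the main setting, and 20.4% and 15.9% of all genes tested differed at least as much between these arrays.

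Of the 3 other genes of the zinc sensing list, all tested, none was called in any comparison, where 10.0% to 26.6% of all genes tested were. The brain metallothionein Mt3 read 10.13 in ES, 10.15 in ELA, 9.41 in AZA and 9.23 in CHQ. Mt4, known from stratified epithelia, read between 7.82 and 8.40 on all arrays. Mtf1 itself read 9.54, 9.24, 9.66 and 9.80 in the same order, a range smaller than 1 log2 unit. The genes whose centred profile over the 4 arrays lay nearest to that of Mt1, among 12714 genes, were Coro2b (Euclidean distance 0.23 log2 units), Mt2 (0.30) and Nsg2 (0.30).

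The zinc exporter gene Slc30a1 rose with the metallothioneins in ELA cells and in the main setting stood near its ES level in CHQ. Slc30a1 encodes the transporter that moves zinc across the plasma membrane out of the cell. Its probe (mm9, chr1:193736760-193736819, plus strand) read 9.0 in ES, 10.38 in ELA, 9.97 in AZA and 9.14 in CHQ. It was called higher in ELA against ES by 1.39 (2.62-fold) and lower in CHQ against ELA at -1.24 (2.36-fold). The AZA minus ELA difference of -0.41 was not called. On the second slide CHQ minus AZA was -0.83, which missed the call, and 14.7% of genes tested differed at least as much. The fall in CHQ was called under each alternative of background correction, scaling and probe choice, at -1.39 to -1.24, but not with a threshold of 1.5, whereas the rise in ELA dropped to 0.83 under spike-in scaling and was then not called.

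Of the 9 other zinc exporters of the Slc30 family, 6 were bright enough to test and none of those was called in any of the 4 comparisons, where 10.0% to 26.6% of all genes tested were. These calls rest on the brightest probe of each gene. The dimmer Slc30a9 probe gave -1.2 in AZA against ELA, where the brightest gave -0.48. Slc30a4, which loads zinc into vesicles, came closest in ELA against ES, reading 9.84 in ES and 10.81 in ELA, a difference of 0.97. It read 10.04 in AZA and 10.86 in CHQ. Slc30a5, which supplies zinc to the secretory pathway, read 11.60, 11.22, 12.01 and 11.93 in the order of ES, ELA, AZA and CHQ, and so went the opposite way to Slc30a1 with CHQ.

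Slc39a8 was read lower on both treated arrays than on the ES and ELA arrays of the other slide. It encodes ZIP8, an importer of zinc, manganese and iron at the cell surface. Its probe (mm9, chr3:135551169-135551228, plus strand), for which the files list 3 RefSeq transcripts, read 10.36 in ES, 11.54 in ELA, 7.23 in AZA and 7.75 in CHQ. The uncorrected intensities were 1410, 2690, 104 and 178 over local backgrounds of 66, 75, 15.5 and 14, so the probe remained well above background on every array. In ELA against ES, Slc39a8 was called higher by 1.18 (2.27-fold), but the difference was 0.57 and not called under spike-in scaling. This contrast also holds the ELA value that entered the choice of the gene. AZA minus ELA was -4.32 (19.9-fold), the contrast by which the gene was chosen. CHQ minus ELA was -3.79 (13.8-fold), a fall that shares the ELA array and the change of slide with the former. Both treated arrays also read below ES, which lay on the first slide with ELA.

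Depending on the processing, the AZA difference of Slc39a8 lay between -5.23 and -4.32 and the CHQ difference between -4.34 and -3.79, and both were called under every alternative. CHQ read 0.53 above AZA, but the mean of these dim values was under 7.5 and the pair was not tested. A single spot stands behind each Slc39a8 value, and no other probe of the gene was on the array to compare it with. The genes with the nearest profiles to Slc39a8 were the orphan nuclear receptor Nr6a1 (distance 0.37), the neuronal growth cone gene Dpysl2 (0.68) and the small nucleolar RNA gene Rnu3b1 (0.77). The Slc39a8 profile holds the ELA and AZA values by which the gene was chosen, so this list is a description and supports nothing. Nr6a1 read 10.30 in ES, 11.86 in ELA, 7.59 in AZA and 8.16 in CHQ. Of the 5 neural markers, 3 of the 4 bright enough to test (Nes, Tubb3 and Zfp521) were called lower with AZA and the same 3 with CHQ, while Sox1 was not (-0.35 and -0.40). Of all genes tested, 11.4% and 11.9% were called lower in those comparisons. In ELA against ES, 1 of 5 was called, Zfp521, higher, where 4.45% of all genes tested were, and Pax6 gave -0.13. The part of the neural markers in the Slc39a8 differences was not tested.

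The remaining zinc importers among the members did not follow Slc39a8. Slc39a10, an importer at the plasma membrane, was highest in ES. Its probe (mm9, chr1:46865343-46865402, minus strand) read 12.01 in ES, 11.45 in ELA, 10.98 in AZA and 11.50 in CHQ. The differences were -0.56 in ELA against ES, -0.48 in AZA against ELA and 0.04 in CHQ against ELA, and none was called in the main setting. Under spike-in scaling the first was called, at -1.21. Slc39a14, which encodes ZIP14 and carries zinc, iron and manganese, was highest in CHQ in the main setting. Its probe (mm9, chr14:70703394-70703453, minus strand) read 12.07 in ES, 12.28 in ELA, 12.14 in AZA and 12.87 in CHQ. CHQ exceeded ELA by 0.60 and AZA by 0.74, again below the call, and ELA exceeded ES by 0.20, a difference that turned to -0.45 under spike-in scaling.

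Of the 11 other Slc39 importers, 7 could be tested in each comparison with a treated array, and 1 was called with AZA and 1 with CHQ, both higher, where 25.6% and 26.6% of all genes tested were called. None of those 7 was called in CHQ against AZA, nor any of the 8 tested in ELA against ES, where 10.3% and 10.0% of all genes tested were. Slc39a4, the importer of dietary zinc, read 14.70 in ES, 14.14 in ELA, 15.20 in AZA and 14.96 in CHQ, and its difference in AZA against ELA was 1.06. Slc39a13, found in the Golgi, read 9.68, 9.75, 10.69 and 10.84 in the same order, with a difference of 1.09 in CHQ against ELA and 0.95 in AZA against ELA.

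**Figure D2:**
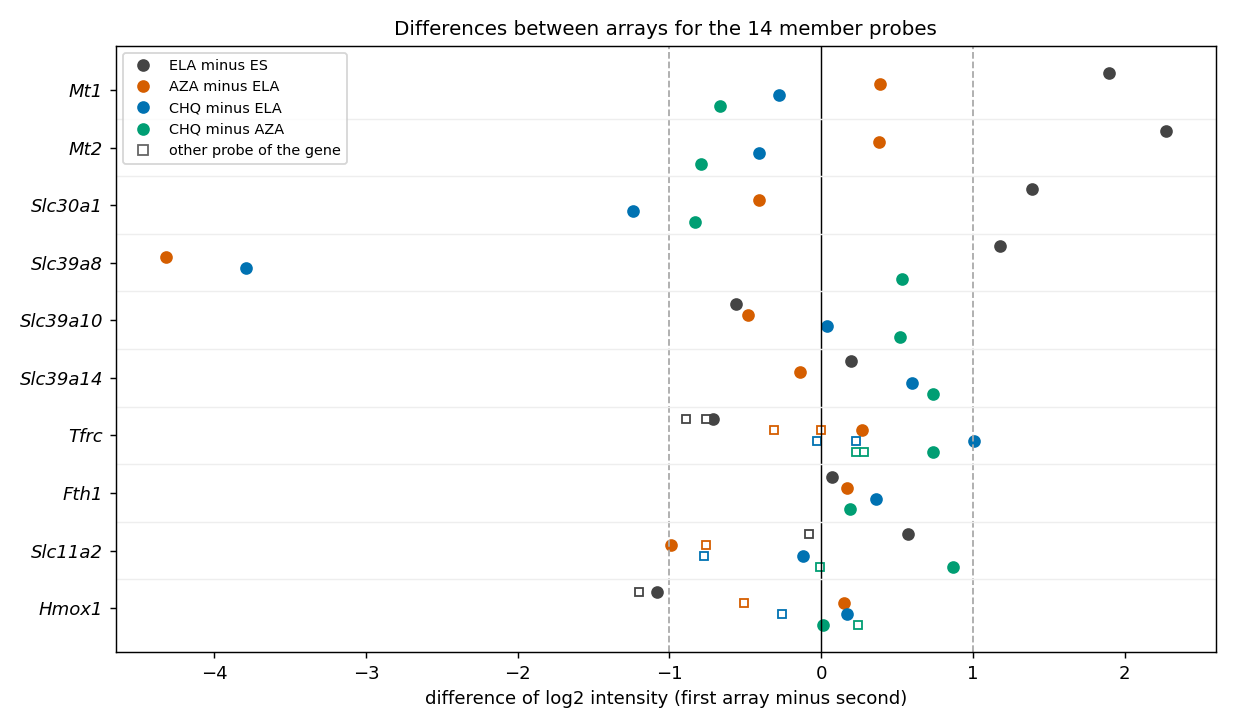
Difference of log2 intensity (x axis) for the 14 probes of the 10 genes (y axis) in 4 comparisons by colour, with filled circles for the brightest probe, open squares for other probes and dashed lines at the call threshold of 1. Slc39a8 lies at -4.32 with AZA and at -3.79 with CHQ relative to ELA, and the Tfrc probes spread from -0.03 to 1.01 with CHQ.

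Tfrc was lower in ELA than in ES cells by all 3 of its probes, and its increase with CHQ depended on the probe. The brightest probe (mm9, chr16:32632255-32632314, plus strand) was spotted 10 times and read 12.86 ± 0.13 in ES, 12.15 ± 0.16 in ELA, 12.42 ± 0.12 in AZA and 13.16 ± 0.16 in CHQ (SD over spots of the same array). This SD is technical and holds no variation between cultures or slides. It gave -0.71 in ELA against ES, 0.27 in AZA against ELA and 0.74 in CHQ against AZA, and was called higher in CHQ against ELA by 1.01 (2.01-fold).

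The second Tfrc probe (mm9, chr16:32620470-32620529) read 11.57 in ES, 10.68 in ELA, 10.68 in AZA and 10.90 in CHQ, and the third (mm9, chr16:32624877-32625093) read 8.79, 8.03, 7.72 and 8.0. All 3 probes agree on a lower level in ELA than in ES, by a mean of -0.79 (SD over probes 0.09). For CHQ against ELA the probes gave 1.01, 0.23 and -0.03, a mean of 0.40 (SD 0.54), so this call rests on 1 of 3 probes. It was also lost under 75th percentile scaling (0.88) and spike-in scaling (0.75). All 3 probes read higher in CHQ than in AZA, by 0.23 to 0.74.

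Slc11a2, the divalent metal transporter DMT1, was lowest in AZA by its brighter probe. That probe (mm9, chr15:100218333-100218392, minus strand), for which the files list 1 RefSeq transcript, read 9.87 in ES, 10.44 in ELA, 9.45 in AZA and 10.32 in CHQ. The dimmer probe (mm9, chr15:100240516-100240575), for which they list 2, read 7.97, 7.89, 7.13 and 7.12. The probes gave -0.99 and -0.76 with AZA relative to ELA. The first lies just short of the call and was called, at -1.11 to -1.0, under 5 of the 6 alternatives of background correction, scaling, value table and probe choice, but not with a threshold of 1.5 or with another filter on dim probes. For CHQ the probes parted: the brighter gave -0.12 against ELA and the dimmer -0.77, and against AZA they gave 0.87 and -0.01.

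Fth1 had the narrowest range of the members in the main setting. Its probe (mm9, chr19:10059485-10059544, plus strand) read 16.92 in ES, 17.0 in ELA, 17.17 in AZA and 17.36 in CHQ. Across the 4 comparisons no difference exceeded 0.36 in size in the main setting, and under spike-in scaling all 4 turned negative (-0.54 to -0.12). Ferritin heavy chain has many processed pseudogene copies, whose transcripts this probe may also bind, so the reading is uncertain. The light chain gene Ftl1 read 18.55, 18.62, 18.60 and 18.48 in the same order of arrays.

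Hmox1, the stress-inducible haem oxygenase, was higher in ES than in every aggregate sample. The brighter probe (mm9, chr8:77624207-77624266, plus strand) read 14.05 in ES, 12.97 in ELA, 13.13 in AZA and 13.14 in CHQ. The dimmer probe (mm9, chr8:77620797-77620856) read 11.07, 9.87, 9.36 and 9.61. Both probes gave a lower level in ELA than in ES, by -1.08 and -1.20, and the gene was called lower under each alternative of background correction, scaling and probe choice (-1.83 to -1.07), but not with a threshold of 1.5. Neither treatment moved it beyond the spread of its probes. AZA against ELA gave 0.15 and -0.51, CHQ against ELA 0.17 and -0.26, and CHQ against AZA 0.01 and 0.24.

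Counted over the 10 genes, ELA against ES gave 4 higher (Mt1, Mt2, Slc30a1 and Slc39a8) and 1 lower (Hmox1). Slc39a8 was chosen by a contrast that shares the ELA value, so nothing is read from its call here. The background was 10.0% of 18947 genes tested, 4.45% higher and 5.59% lower, and the median was 0.39 over the members and -0.02 over all genes tested. Spike-in scaling moved that overall median to -0.60 and cut the share of calls that were higher from 44.3% to 7.3%, and the members' values under that scaling include this shift. The members then gave 2 higher (Mt1 and Mt2) and 3 lower (Slc39a10, Tfrc at -1.43 and Hmox1), with a median of -0.22. Of 20564 genes tested under that scaling, 4274 were called, 312 higher and 3962 lower. With AZA, Slc39a8 alone was called, lower, where 25.6% of 19159 genes tested were called, 14.3% higher and 11.4% lower. Since this contrast chose Slc39a8, nothing is read from that count. In CHQ against ELA, Tfrc was called higher and Slc30a1 and Slc39a8 lower, 3 of 10 where 26.6% of 19163 genes tested were called, 14.8% higher and 11.9% lower. A share of members this close to the background is no result about them. Under 75th percentile and spike-in scaling the called members were Mt1, Mt2, Slc30a1 and Slc39a8, 4 in all and each lower. Of all genes tested, 5524 of 16903 and 6227 of 18581 were called under these scalings, 3205 and 4161 of them lower. In CHQ against AZA, none of the 9 members tested was called, where 10.3% of 19196 genes tested were called, 5.53% higher and 4.81% lower. In CHQ against ELA the share of calls that were higher was 55.5% in the main setting, 42.0% under 75th percentile scaling and 33.2% under spike-in scaling. In CHQ against AZA it was 53.5% in the main setting and 41.7% under spike-in scaling.

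The comparison of the treatments within the slide shows the members in opposing directions, though none past the call. Slc30a1, Mt2 and Mt1 read lower in CHQ than in AZA, with differences of -0.83, -0.79 and -0.67. Slc11a2, Slc39a14, Tfrc and Slc39a10 read higher in CHQ, by 0.87, 0.74, 0.74 and 0.52. These signs held for the brightest probe under every alternative, and for Slc11a2 the dimmer probe gave -0.01. Both compounds were given at a single and different dose, so the values stand side by side and are not a comparison at matched dose.

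**Figure D3:**
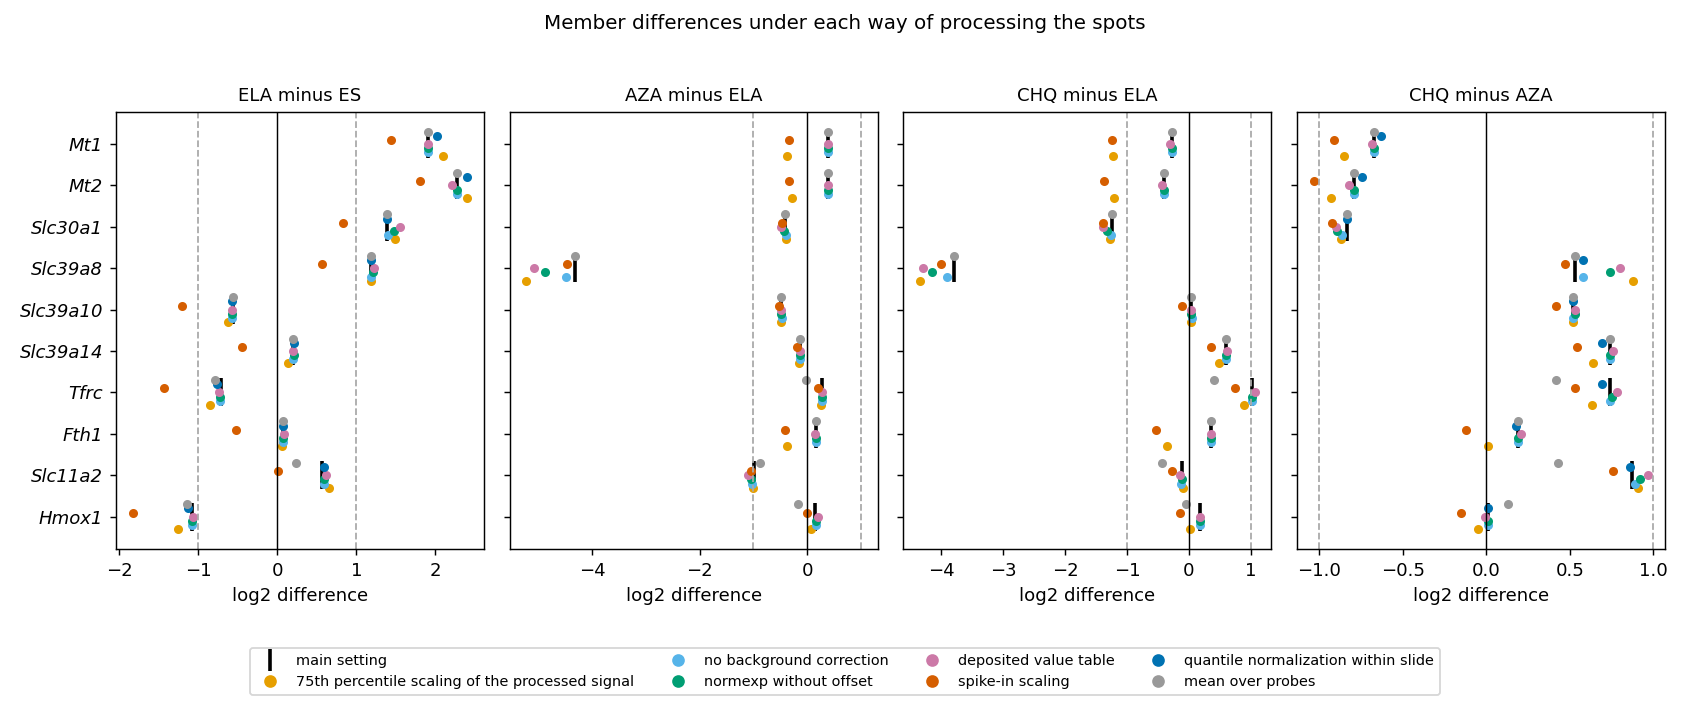
Log2 difference of each member (x axis, with its own range in each panel) in the 4 comparisons, as a black bar in the main setting and as coloured points under each alternative. Mt1 and Mt2 cross 0 in AZA minus ELA, and Slc39a8 stays at or below -3.79 for CHQ minus ELA in all of them.

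Beyond the members, 84 further genes of zinc, iron, haem and copper handling were examined by list. In ELA against ES, 4 of the 64 tested were called, all lower (6.25%, against 10.0% of all genes). With AZA, 8 were higher and 2 lower of 65 (15.4%), and with CHQ 8 higher and 1 lower of 65 (13.8%), against 25.6% and 26.6% of all genes. In CHQ against AZA, 1 was higher and 3 lower of 64 (6.25%, against 10.3%). The medians over these genes were -0.10, 0.11, 0.06 and -0.06.

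Among the genes of iron uptake beside Tfrc and Slc11a2, 7 could be tested, of which 3 were called lower in ELA against ES, 3 higher with AZA and 1 higher with CHQ, and 2 lower in CHQ against AZA. Of all genes tested, 5.59%, 14.3%, 14.8% and 4.81% were called in those directions. Trf, the transferrin that Tfrc binds, read 10.53 in ES, 8.94 in ELA, 11.76 in AZA and 11.03 in CHQ. It was called lower in ELA against ES at -1.59 and higher with AZA by 2.82 and with CHQ by 2.09, and its other probe gave -1.33, 2.62 and 1.65. Trf is also made by visceral endoderm. Of the 12 endoderm markers, 5 could be tested with AZA, where Cubn was higher by 2.12 and Foxa2 and Dab2 were lower, at -1.81 and -1.47. With CHQ 7 could be tested, of which Gata6, Sox17 and Cubn were called higher and Foxa2, Dab2 and Amn were lower, at -1.34 to -1.01. Cubn was higher by 1.75. Of all genes tested, 14.3% were called higher and 11.4% lower with AZA, and 14.8% and 11.9% with CHQ. Gata6 and Sox17 could be tested only through their CHQ values, so nothing is read from the count with CHQ. Gata6 and Sox17 were not well above background in ELA, and were at least 8.87-fold and 6.73-fold higher in CHQ, measured from the lowest level well above background on the ELA array or their own value, whichever was higher. In AZA, where they were too dim to test against ELA, they were at least 2.49-fold and 2.0-fold higher by this measure. The other Sox17 probe gave 1.38 with CHQ and 0.21 with AZA. Afp, too dim to test against ELA, was at least 3.53-fold higher in CHQ and 1.1-fold higher in AZA by the same measure. The part of endoderm in the Trf differences was not tested. Steap1, of a family of endosomal metalloreductases, read 12.48 in ES, 10.43 in ELA, 11.60 in AZA and 10.29 in CHQ, and Steap2 was called lower in ELA at -1.42 by the brightest of its 3 probes, the others giving -0.47 and 0.11. Slc11a1, the phagosomal relative of Slc11a2, read 7.48, 7.82, 9.87 and 8.44, and was called higher in AZA by 2.05.

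**Figure D4:**
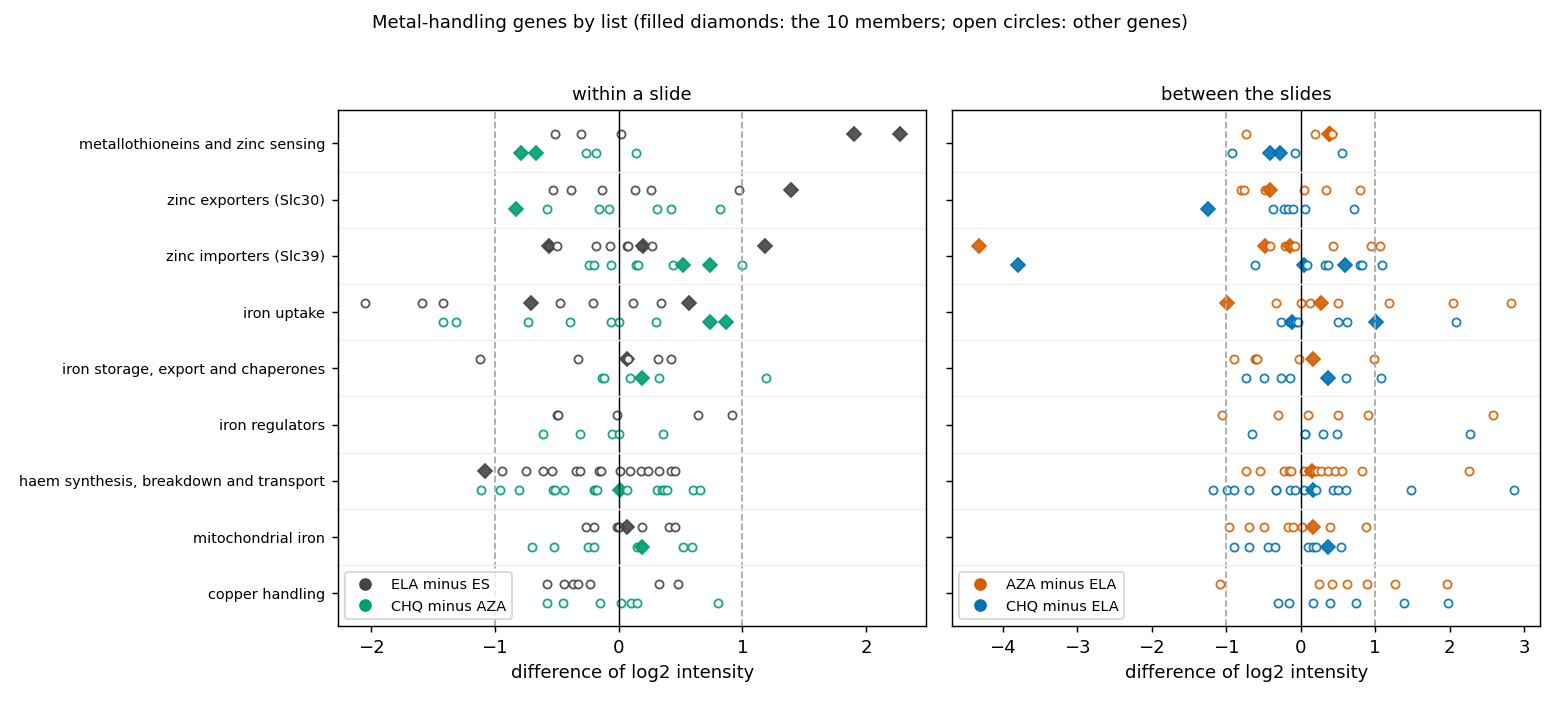
Difference of log2 intensity (x axis) for the genes of each metal-handling list that were bright enough to test (y axis), with filled diamonds for the 10 members and open circles for other genes, within a slide on the left and between the slides on the right. The zinc importer at -4.32 and -3.79 is Slc39a8, and the metallothioneins at 1.90 and 2.27 are Mt1 and Mt2.

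Around ferritin, Ncoa4, the receptor that carries ferritin to lysosomes, read 13.99 in ES, 12.87 in ELA, 13.85 in AZA and 13.95 in CHQ. It was called lower in ELA at -1.12 and higher in CHQ by 1.08, and AZA read 0.98 above ELA. The iron exporter ferroportin (Slc40a1) read 10.96, 10.62, 10.04 and 11.23, and was called higher in CHQ than in AZA by 1.19, the same order of the treated arrays as for Tfrc. Of the iron regulators, the hepcidin-repressing protease Tmprss6 was called higher in AZA by 2.58 and in CHQ by 2.27. Aco1, an iron regulatory protein that acts on Tfrc and ferritin mRNA, was called lower in AZA at -1.05, from 8.25 in ELA to 7.20, while Ireb2, the other iron regulatory protein, gave 0.10 with AZA and 0.06 with CHQ.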

How the data were processed

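Agilent Feature Extraction 10.7.3.1, per the file headers, gave the authors a spot intensity and a local background intensity for every Cy3 spot. The deposited files also carry other values, flags for outlying spots and for signal well above background. A deposited table of log2 values, corrected and quantile-normalised by the authors in limma, served as an alternative. Here the mean spot intensity was corrected by normexp with an offset of 50 and quantile-normalised over 4 arrays with limma 3.58.1 in R 4.3.3. Control and outlier spots were left out afterwards, the spots of a probe were averaged, and a gene was represented by its brightest probe. Of 55681 probes, 559 had no usable spot on some array. No spot was saturated. The number of arrays limits the precision.

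The members and lists were chosen with earlier results of these data known. The text names all 10 members, up to 4 called genes per list with the largest differences, and the 3 genes nearest in profile to Mt1 and to Slc39a8. Mt3, Mt4, Mtf1, Slc30a4, Slc30a5, Ftl1 and the cell markers given with values were named after their values were seen. Alternatives covered background correction, scaling, probe choice, dim-probe filter and threshold. The calling code was tested on simulated data. Probe positions are mm9 as deposited, promoters are RefSeq GRCm38.p6, and exon positions were not assigned. The stricter motif search, TGCACNC or TGCGCNC, was added after the data were seen. A further array with a SmarcA4 knockdown named in the labels was not analysed here.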

Additional observations from a re-analysis of the deposited data

How the results depend on the processing

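No paired analysis was possible because each group had 1 array. For the same reason no array could be left out. The signs and calls of Mt1 and Mt2 in ELA against ES, and of Slc39a8 in CHQ against ELA, held under each alternative run. Those of Hmox1 in ELA against ES and of Slc30a1 in CHQ against ELA held under all but the threshold of 1.5, which left 2 members called in the former comparison and 1 in the latter. In AZA against ELA the number of members called was 1 and became 2, with Slc11a2 added, under 75th percentile scaling, without background correction, with normexp lacking an offset, with the deposited value table and under spike-in scaling. In CHQ against AZA it was 0 and became 1, Mt2, under spike-in scaling. Members and further pathway genes called together numbered 9 in ELA against ES and 12 in CHQ against ELA, and 24 and 20 under spike-in scaling. In AZA against ELA they numbered 11, and 7 with a mean log2 value of at least 9. Over all genes, calls in ELA against ES were 1904, against 4274 under spike-in scaling, 1204 with that filter and 839 with a threshold of 1.5. The same filter gave 3259 in AZA against ELA and 1318 in CHQ against AZA, and the threshold of 1.5 gave 2591 and 773, and 2583 in CHQ against ELA. Fewer genes pass the last 2 settings by construction, and the cause of the other shifts was not tested. The difference of Slc39a8 in AZA against ELA was -4.32 with the normexp offset and -4.88 without it.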

Other observations

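Of 7 copper handling genes tested, 3 were called with AZA and 2 with CHQ relative to ELA, and of 16 genes of haem handling, Hmox1 among them, 1 and 3, where 25.6% and 26.6% of all genes tested were called. Slc31a2, a copper transporter of endosomes, read 9.97 in ES, 9.60 in ELA, 11.56 in AZA and 11.59 in CHQ, and its other probe gave smaller differences of 0.74 and 1.02 from ELA. The copper ATPase Atp7a read 11.03, 10.59, 11.87 and 11.97 in the same order. Commd1, which takes part in copper export, was called lower in AZA at -1.09. Of the haem genes, the transporter gene Flvcr2 read 8.65, 7.70, 9.96 and 10.56, and the haem synthesis gene Cpox was called higher in CHQ by 1.48. Blvrb, a flavin and biliverdin reductase, was called lower in CHQ at -1.18. Blvra, which reduces the biliverdin that Hmox1 forms, gave 0.04 by its brightest probe and -0.63 by the other. The haem transporter gene Slc48a1 was called lower in CHQ than in AZA at -1.11. Of the 9 genes of mitochondrial iron handling, Fth1 among them, 9 were tested and none was called in any comparison, with medians from -0.10 to 0.15, where 10.0% to 26.6% of all genes tested were called. A dimmer Abcb8 probe gave -1.58 in AZA against ELA, where the brightest gave -0.96.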
